A study of Homo sapiens with 80 samples.

Results

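Transcripts of 7 genes of 3 transcription factor families, out of 43388 genes in the tables, were followed through the differentiation of human pluripotent stem cells to cardiomyocytes. They were GATA4, GATA5 and GATA6, HAND1 and HAND2, and the Friend of GATA (FOG) genes ZFPM1 (FOG1) and ZFPM2 (FOG2). They were chosen by name, all 7 were measured in both experiments, and all 7 passed the filters on low values. TNNT2, the gene of the cardiac troponin T protein that purity was scored on, served as the clock against which their timing was read.

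Cells were treated on day 0 with CHIR99021, which activates WNT signalling, and later with IWP2, which blocks WNT secretion, in medium with B27 first without and then with insulin, and flow cytometry of cardiac troponin T at day 16 put a differentiation in the high or the low purity class. In the multi-omic experiment, 25 high purity libraries (passage 52) and 31 low purity libraries (passage 69) were wells of 1 differentiation each of the induced line WTC11. Each class had 4 wells at days 0, 2, 4 and 6, followed by 3 high and 4 low purity wells on day 8, 1 and 4 on day 10, 2 and 4 on day 13, and 3 and 3 on day 16. In the RNA-only experiment, WTC11, IMR90-4 (another induced pluripotent line) and H9 (an embryonic line) each gave 1 high and 1 low purity differentiation, with 1 library at each of 4 stages: day 0, day 2 in WTC11 or day 3 in the other lines, day 4 or 5, and day 6 or 7. IWP2 was added at the second of these stages. Passages there were 58 (high) and 55 (low) for H9, 55 and 75 for IMR90-4, and 81 and 69 for WTC11. Purity, passage and differentiation cannot be told apart in the multi-omic experiment, and its wells show only the spread within a differentiation.

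GATA4, GATA5 and GATA6 are zinc finger proteins that bind the letters GATA in DNA and act in heart and endoderm. HAND1 and HAND2 are basic helix-loop-helix factors that pair with E proteins, and are known for roles in the left and right ventricle respectively, and, for HAND1, in extraembryonic and lateral mesoderm. FOG proteins do not bind DNA on their own but bind the GATA factors and modulate what they do at their targets; ZFPM2 is the FOG gene known for the heart and epicardium, ZFPM1 the one known for blood.

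Levels are given as TPM, a transcript level scaled by gene length and library size, so that genes can be compared. Reads per library ranged from 6579715 to 18143597 in the multi-omic and from 17990882 to 40357968 in the RNA-only experiment. The column names of the multi-omic count table and TPM table did not match: 0 of 56 same-named columns held the same library, and 50 TPM columns matched a count column of another name. The names of the TPM table were used, and every multi-omic result rests on them. They were checked on marker lists for days 0 and 16 only, so the names of the days between were not checked in this way. Summed TPM of 7 pluripotency genes was 5280 to 5520 in high and 4600 to 4820 in low purity wells on day 0 and at most 50.4 in any well on day 16, and summed TPM of 10 cardiomyocyte genes reached 14600 to 16600 and 5730 to 8380 on day 16. Differences in the multi-omic experiment are log2 fold changes of TPM + 1 after TMM scaling (limma, Benjamini-Hochberg adjusted p over 25664 genes), and a gene is called where the adjusted p was under 0.05 and the absolute log2 fold change at least 1. Without TMM the median gene shifted by -0.18 on day 8, -0.13 on day 13 and -0.12 on day 16 in the difference between high and low purity. In bulk libraries such as these, fewer cells of a type and less RNA per cell cannot be told apart.

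At a threshold of 10 TPM the factors came up in 2 waves. GATA4, GATA6 and HAND1 were at 10 TPM or more in every well of both classes by day 2, while GATA5 and HAND2 passed this level on day 4. ZFPM2 passed it on day 4 in low purity wells and on day 8 in high purity wells. ZFPM1 passed it on day 4 in low purity wells, and was not at 10 TPM in every high purity well on any day. TNNT2 passed 10 TPM on day 4 in both, so that 3 of the 7 members were at the threshold before TNNT2 in each class. At 20 TPM, TNNT2 was reached on day 6 in high and day 4 in low purity wells, and 5 and 2 members came before it. HAND1 changed wave with the threshold. It was at 10.33 to 12.45 TPM in high and 13.92 to 15.92 TPM in low purity wells on day 2, and passed 20 TPM on day 4 in both. A threshold of 5 TPM could not be read in low purity wells, where TNNT2 was already above it on day 0. It is not a clear onset in high purity wells either, where TNNT2 was at 4.37 to 6.64 TPM on day 0. The highest low purity well was at 10.1 TPM on day 0, so the 10 TPM onset of TNNT2 there rests on the rule that every well passes.

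TNNT2 itself was at 4.37, 5.62, 6.49 and 6.64 TPM in high purity wells on day 0 and at 6.69, 10.1, 8.05 and 6.29 TPM in low purity wells. It fell from day 0 to day 2 in both, to at most 1.58 and 1.71 TPM. On day 4 the high purity wells were at 16.9, 12.9, 10.3 and 20.8 TPM and the low purity wells at 489, 486, 457 and 524 TPM. The low purity differentiation was thus far above the high purity one on day 4, with a log2 fold change, high minus low, of -4.95 ± 0.27 (SE; adjusted p = 1.55e-19). On day 6 the wells overlapped, at 1335, 916, 656 and 1751 TPM in the high and 1123, 1179, 1074 and 672 TPM in low purity. From day 8 the order was the other way: 2474, 2874 and 3507 TPM in high against 1328, 1640, 1404 and 1071 TPM in low purity on day 8, and 3702, 3555 and 2867 against 827, 1165 and 1227 TPM on day 16. TNNT2 was called higher in high purity on days 8, 13 and 16 (log2 1.35, 1.46 and 1.89), although with a pseudocount of 0.1 the limma adjusted p was 0.0556 on day 8 and 0.0834 on day 13. Since the classes were set by cardiac troponin T protein at day 16, this late direction is not independent of the grouping.

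The level of 50% of each gene's own highest mean, read between sampled days, was crossed before TNNT2 by 6 of 7 members in high and 7 of 7 in low purity wells. In high purity wells this was on day 1.19 for GATA6, 2.95 for HAND1, 3.16 for ZFPM1, 3.21 for GATA4, 3.66 for GATA5, 6.12 for ZFPM2 and 6.59 for TNNT2. HAND2 came last there, on day 11.41, with its highest mean, 196.7 TPM, on day 16. Its mean in high purity wells was already 62.6 TPM on day 4. At 10% of the highest mean the order was the other way, with HAND2 on day 2.63 and TNNT2 on day 4.56. In low purity wells the days were 1.55 for GATA6, 2.4 for ZFPM1, 3.25 for HAND2, 3.83 for GATA5, 3.86 for GATA4, 4.16 for ZFPM2, 4.25 for HAND1 and 4.73 for TNNT2. Sampling was every 2 days or less often, so an order within an interval is not resolved by it.

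**Figure D1:**
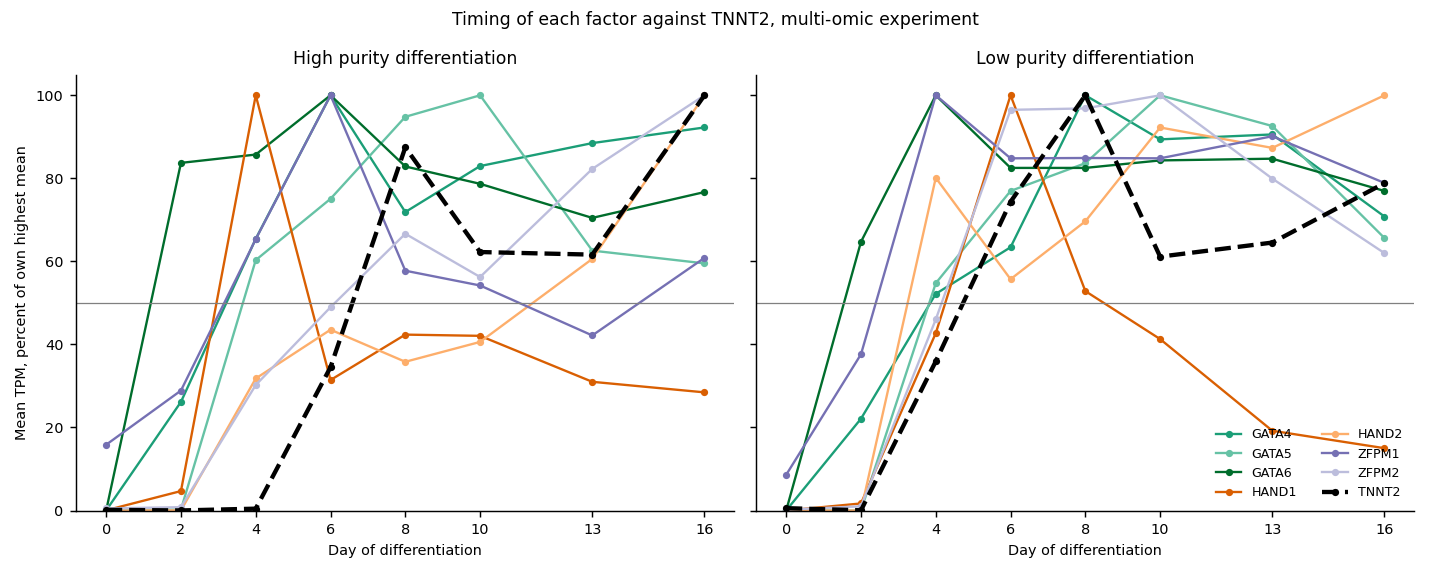
Mean TPM of each factor and of TNNT2 (dashed, black) as percent of the gene's own highest group mean (vertical axis) by day of differentiation (horizontal axis), in high (left) and low purity (right) WTC11 wells. Points are group means of 1 to 4 wells, and the grey line marks 50%. GATA6 is the first to cross it on both sides, and TNNT2 crosses it on day 6.59 on the left and 4.73 on the right.

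GATA6 (chromosome 18, 22169589 to 22202528, GRCh38.p14) made the steepest early rise. It was at or near 0 on day 0, at most 0.0722 TPM in any well. On day 2 it was at 98.5, 104.5, 101.7 and 96.4 TPM in the high and at 101, 88.8, 89.9 and 93.4 TPM in low purity wells. From then on it stayed between 83.7 and 149.9 TPM in all wells. Its rise from day 0 to 2 was 6.70 ± 0.06 in high and 6.51 ± 0.06 in low purity wells on the log2 scale (SE; limma adjusted p = 3.31e-50 and 1.08e-49), and no later interval was called in either. On day 4 GATA6 was at 110.0, 90.9, 101 and 109 TPM in the high and at 144, 149.9, 139.5 and 143 TPM in low purity wells, which did not overlap. That difference was -0.48 ± 0.06 (adjusted p = 4.74e-09), under the fold threshold.

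GATA4 (chromosome 8, 11676935 to 11760002) rose in steps. It was at most 0.0825 TPM on day 0. On day 2 it was at 22.4, 25.2, 22.0 and 23.8 TPM in the high and 35.9, 29.9, 30.1 and 38.3 TPM in wells of low purity. On day 4 it was at 58.0, 52.5, 61.5 and 61.5 TPM in the high and 77.8, 79.1, 80.8 and 79.0 TPM in low purity wells, and on day 6 at 81.2 to 96.2 and 91.5 to 105.9 TPM. The low purity wells were above all high purity wells on days 2 and 4, and overlapped with them on day 6. The rises from day 0 to 2 (4.62 and 5.06) and from day 2 to 4 (1.17 and 1.17) were called in both classes.

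The largest GATA4 difference was on day 8. High purity wells were at 63.2, 66.03 and 63.1 TPM, and low purity wells at 147, 157, 150.6 and 152 TPM. The log2 fold change was -1.00 ± 0.07 (SE; adjusted p = 8.40e-17). It lies on the fold threshold: without high purity well 1 it was -0.94 (adjusted p = 3.35e-14), it was also under the threshold without high purity well 2 or low purity well 2, 3 or 4, and edgeR and DESeq2 on reads gave -0.99. On day 10 the single high purity well was at 74.0 TPM and the low purity wells at 126 to 143 TPM. On day 13 the high purity wells were at 78.7 and 79.2 TPM and the low purity wells at 132, 146, 139 and 132 TPM. By day 16 the levels were 83.4, 83.1 and 80.3 TPM against 107, 114 and 102 TPM, still without overlap, with a difference of -0.16 ± 0.07 after TMM scaling (adjusted p = 0.0641).

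GATA5 (chromosome 20, 62463497 to 62475995) was the late GATA gene and, like GATA6, was not called between the classes on any day. It was at most 0.221 TPM up to day 2. On day 4 it was at 26.3, 25.1, 29.1 and 27.0 TPM in the high and 25.1, 26.7, 23.8 and 23.3 TPM in low purity wells. Its rise from day 2 to 4 was 4.59 ± 0.10 and 4.62 ± 0.10 (SE; limma adjusted p = 3.34e-35 and 1.45e-35). Of the 7 days tested, the wells of the classes overlapped on all but day 13. On day 8, at 50.1, 42.1 and 34.6 TPM in the high and 34.3, 38.6, 39.5 and 38.6 TPM in low purity wells, the difference was 0.37 ± 0.11 (adjusted p = 0.00393), and on day 13 it was -0.38 ± 0.12 (adjusted p = 0.012).

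**Figure D2:**
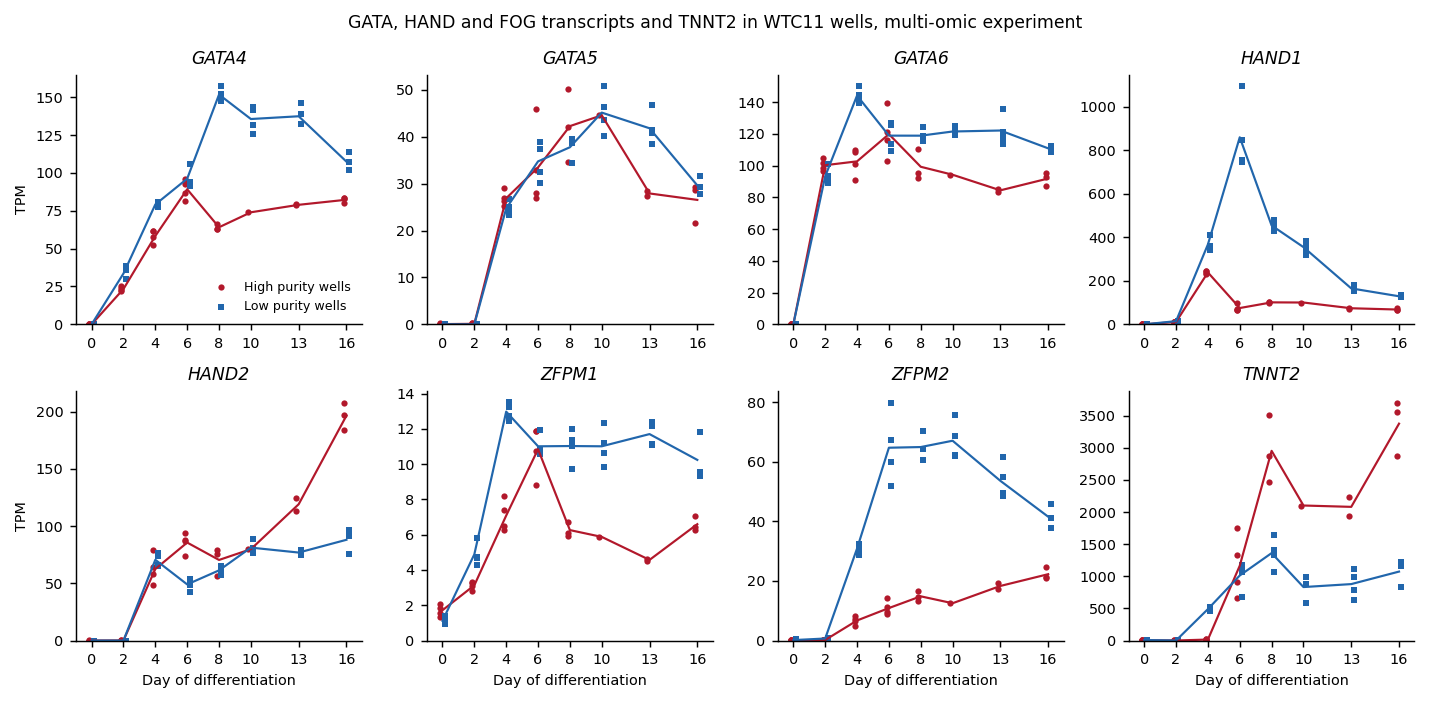
TPM (vertical axis, linear, a separate scale per gene) of the 7 factors and TNNT2 by day of differentiation (horizontal axis) in the multi-omic experiment. Circles are high and squares low purity wells, and lines join the group means. Among the 7 factors the classes lie far apart for HAND1 and ZFPM2, with HAND1 at 65.6 to 97.8 TPM in the high and 744 to 1093 TPM in wells of low purity on day 6.

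HAND1 (chromosome 5, 154474972 to 154478227) differed most between the classes. It was at most 0.454 TPM on day 0. On day 2 it was at 12.4, 10.7, 11.2 and 10.3 TPM in the high and 14.7, 15.9, 14.2 and 13.9 TPM in wells of low purity. On day 4 it was at 243.4, 237.5, 243.0 and 229.8 TPM in the high and 340.1, 356, 360.4 and 412 TPM in low purity wells. The low purity wells were above all high purity wells on both days, with differences of -0.30 ± 0.12 (adjusted p = 0.0335) and -0.61 ± 0.12 (adjusted p = 2.62e-05), both under the fold threshold.

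After day 4 HAND1 went opposite ways. In high purity wells it reached 69.6, 65.6, 66.7 and 97.8 TPM on day 6 and so fell by 1.76 ± 0.12 on the log2 scale (SE; adjusted p = 4.18e-17). In low purity wells it rose to 754, 744, 847 and 1093 TPM, by 1.15 ± 0.12 (adjusted p = 2.81e-11). The change from day 4 to 6 differed between the classes by -2.91 ± 0.16 (adjusted p = 1.18e-18), and on day 6 HAND1 was lower in high purity by 3.52 ± 0.12 on the log2 scale (log2 -3.52; adjusted p = 3.13e-27). On day 8 it was at 99.9, 102 and 101 TPM in the high and 441, 465, 428 and 482 TPM in low purity wells (log2 -1.93 ± 0.12; adjusted p = 3.64e-17). It then declined in low purity wells, to 169, 153.5, 159 and 179 TPM on day 13 and 134, 128 and 124 TPM on day 16. High purity wells were at 76.9 and 70.9 TPM on day 13 and 65.4, 74.5 and 63.6 TPM on day 16. The fall from day 8 to 16 was called in low purity wells (-1.58) and not in high purity wells (-0.36), and the difference between these changes was 1.22 ± 0.18 (adjusted p = 8.61e-07). HAND1 stayed higher in all low than in all high purity wells on days 13 and 16, with differences of -0.96 and -0.70 under the fold threshold.

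HAND2 (chromosome 4, 173526091 to 173530229) ended on the other side. It was at most 0.259 TPM up to day 2. On day 4 it was at 64.1, 48.6, 58.5 and 79.0 TPM in the high and 65.3, 74.3, 76.4 and 66.3 TPM in low purity wells, which overlapped. The rise from day 2 to 4 was 5.78 ± 0.10 in high and 6.09 ± 0.10 in low purity (SE; limma adjusted p = 2.27e-38 and 1.52e-39). On day 6 the high purity wells, at 93.7, 73.8, 87.7 and 87.4 TPM, were above the low purity wells, at 54.0, 51.7, 48.5 and 42.0 TPM, by 0.78 ± 0.10 (adjusted p = 2.68e-08), under the fold threshold. On day 8 they overlapped, at 56.3, 79.6 and 75.5 TPM against 63.5, 59.4, 64.8 and 57.7 TPM. On day 16 the high purity wells were at 198, 208 and 184 TPM and the low purity wells at 75.4, 97.1 and 91.8 TPM. HAND2 rose from day 8 to 16 in high purity wells by 1.70 ± 0.12 (adjusted p = 4.35e-16), and its day 16 level was the higher one in high purity, by 1.38 ± 0.12 (adjusted p = 1.88e-13). The antisense gene HAND2-AS1 overlaps HAND2 and was called in the same direction on day 16 (log2 1.08), at 21.7 TPM in the high and 11.5 TPM in low purity wells. The 2 genes also went the same way on day 13. On days 6 and 8 HAND2-AS1 was lower in high purity (-0.415 and -0.752; limma adjusted p = 0.00538 and 6.85e-06; under the fold threshold), where HAND2 was higher (0.78 and 0.41). Whether the counting used strand is not given in the sources used here, so reads of an overlapping pair cannot be told apart.

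The 250 bases before the RefSeq start of HAND1, HAND2 and TNNT2 are printed because these genes parted between the classes and GATA factors bind the letters searched here. Sequences run 5′ to 3′ on the gene's own strand, which is the minus strand in each case, and are from RefSeq on GRCh38.p14. They are chr5:154478228-154478477 for HAND1, chr4:173530230-173530479 for HAND2 and chr1:201377681-201377930 for TNNT2. Capitals mark each GATA and its reverse complement TATC.
HAND1: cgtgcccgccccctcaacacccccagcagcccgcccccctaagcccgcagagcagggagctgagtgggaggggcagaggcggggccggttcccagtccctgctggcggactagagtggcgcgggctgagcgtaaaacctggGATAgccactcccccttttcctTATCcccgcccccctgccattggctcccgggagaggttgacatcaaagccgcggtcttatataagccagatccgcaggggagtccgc
HAND2: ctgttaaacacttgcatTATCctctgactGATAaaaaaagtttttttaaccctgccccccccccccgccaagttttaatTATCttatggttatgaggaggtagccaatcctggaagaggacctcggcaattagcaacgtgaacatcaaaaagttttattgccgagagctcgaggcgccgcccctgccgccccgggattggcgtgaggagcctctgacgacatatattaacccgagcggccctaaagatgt
TNNT2: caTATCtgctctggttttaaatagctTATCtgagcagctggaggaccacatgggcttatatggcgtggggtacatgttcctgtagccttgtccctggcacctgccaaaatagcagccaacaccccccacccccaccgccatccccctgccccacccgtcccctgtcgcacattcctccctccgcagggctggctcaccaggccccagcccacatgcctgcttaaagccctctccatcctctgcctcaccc
HAND1 held 2 matches, with first bases at -109 and -87 relative to the start, HAND2 held 3, at -233, -221 and -171, and TNNT2 held 2, at -248 and -224. Of 35116 promoter windows of this length in the RefSeq table, 45.6% held at least 1 match, 19.3% at least 2 and 7.4% at least 3. These counts describe letters only, and binding was not analysed here.

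The 2 HAND genes were then set against each other in each well, as the share of HAND1 in their summed TPM, a measure chosen after the levels were seen. On day 4 HAND1 made up 79.3% ± 3.63 in high (SD, n = 4) and 83.8% ± 1.66 in low purity wells (SD, n = 4). On day 6 it was 46.4% ± 4.69 (42.6% to 52.8%) against 94.4% ± 1.37 (93.3% to 96.3%). The share was 59.1% against 88.1% on day 8, 55.7% in the single high purity well against 81.3% on day 10, and 38.3% against 68.2% on day 13. On day 16 it was 25.6% ± 0.752 (SD, n = 3) in high and 59.5% ± 3.92 (SD, n = 3) in low purity wells. From day 6 no high purity well reached any low purity well. Two-sided exact permutation p-values were 0.0857 on day 4, 0.0286 on days 6 and 8, 0.0667 on day 13 and 0.1 on day 16, and all but the first are the smallest the wells allow. Over the 15 tests of such shares the Benjamini-Hochberg values of these exact tests were 0.125, 0.0715, 0.0715, 0.111 and 0.125, so none passed the correction. Leaving out any 1 well moved the day 6 difference of -48.0 percentage points to between -50.1 and -46.7.

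**Figure D3:**
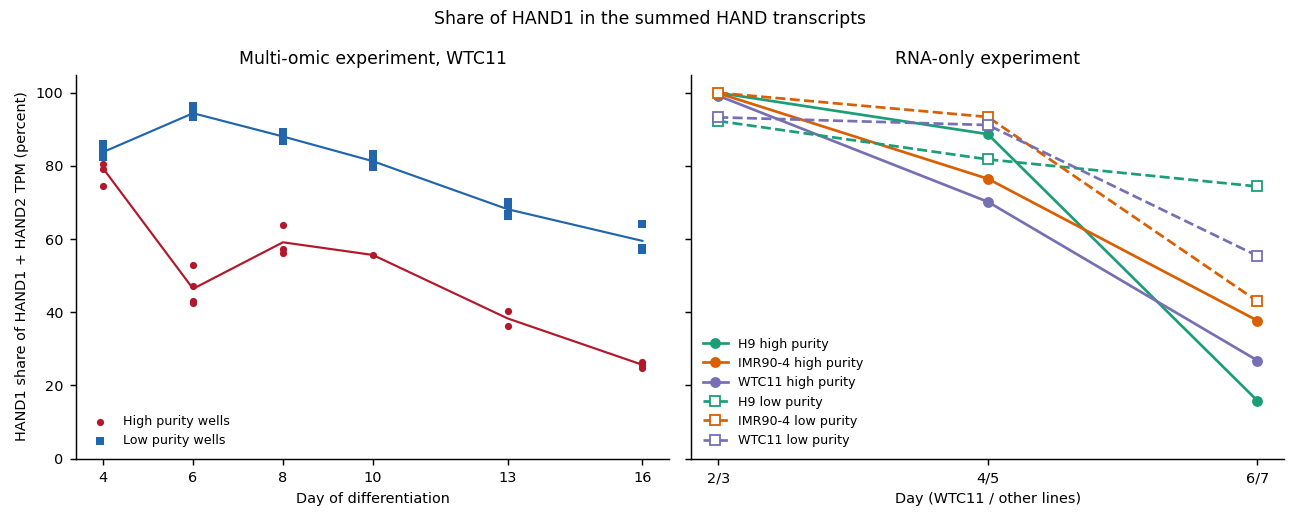
HAND1 as percent of the summed HAND1 and HAND2 TPM (vertical axis) by day, in multi-omic wells (left; circles high, squares low purity, lines join means) and in the RNA-only experiment (right; 1 library per point, filled and solid high purity, open and dashed low purity, colours are lines). On the left the classes part from day 6, and at the last stage on the right the high purity library lies below the low purity library in each of the 3 lines.

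ZFPM2 (chromosome 8, 105318438 to 105804539), the FOG gene of heart and epicardium, was lower in high purity from the time it came up. It was at most 0.351 TPM on day 0. On day 2 it was at 0.141, 0.149, 0.142 and 0.293 TPM in the high and 0.881, 0.590, 0.574 and 0.690 TPM in low purity wells, already without overlap. On day 4 it was at 7.11, 5.05, 6.45 and 8.32 TPM in the high and 30.8, 31.5, 32.4 and 28.9 TPM in low purity wells, a difference of -2.05 ± 0.11 (SE; adjusted p = 9.27e-20). On day 6 it was at 14.1, 9.49, 8.79 and 11.2 TPM against 67.2, 52.0, 59.9 and 79.9 TPM (-2.47 ± 0.11; adjusted p = 2.03e-22), and on day 8 at 13.3, 16.8 and 14.5 TPM against 64.5, 64.4, 60.5 and 70.5 TPM (-1.84 ± 0.12; adjusted p = 5.18e-17). The gap narrowed afterwards. On day 13 it was -1.31 ± 0.14 (adjusted p = 8.12e-11), and on day 16, at 21.4, 24.6 and 20.8 TPM against 45.9, 37.8 and 41.1 TPM, it was -0.66 ± 0.13 (adjusted p = 3.28e-05) and no longer called.

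The change of ZFPM2 from day 2 to 4 was 2.63 in high and 4.18 in low purity wells, a difference of -1.55 ± 0.16 (SE; adjusted p = 6.02e-11). That difference was not called with a pseudocount of 0.1 (-0.75; adjusted p = 0.0800) or in edgeR (-0.41; adjusted p = 0.525) or DESeq2 (-0.38; adjusted p = 0.410) on reads, where the day 2 difference was itself called, at -1.78 in edgeR and -1.83 in DESeq2. From day 8 to 16 the changes differed by 1.18 ± 0.18 (adjusted p = 9.04e-07). ZFPM2-AS1, named after its values were seen, overlaps ZFPM2 and was lower in high purity as well, at 1.14 against 17.8 TPM on day 6, so part of either value may be reads of the other.

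ZFPM1 (chromosome 16, 88451769 to 88537031) was low throughout, between 0.916 and 13.5 TPM. It was the only member above 0.5 TPM in every well on day 0, at 2.07, 1.58, 1.86 and 1.36 TPM in the high and 0.916, 1.15, 0.998 and 1.41 TPM in wells of low purity. On day 4 it was at 6.51, 7.37, 8.17 and 6.28 TPM in the high and 12.4, 13.2, 12.7 and 13.5 TPM in low purity wells, without overlap (-0.79 ± 0.09; adjusted p = 1.84e-09; under the fold threshold). On day 6 the wells overlapped at 8.82 to 11.9 and 10.6 to 11.9 TPM. On day 13 it was called lower in high purity, at 4.61 and 4.53 TPM against 12.2, 12.4, 11.2 and 11.1 TPM (-1.02 ± 0.11; adjusted p = 4.66e-10), a value on the fold threshold that was under it, at -0.997, without the filter on low values. Within the FOG pair, ZFPM2 made up 48.5% ± 7.45 of the summed TPM in the high and 70.4% ± 1.63 in low purity wells on day 4 (SD, n = 4 each), and 49.9% ± 3.16 against 85.2% ± 2.84 on day 6. The exact permutation p was 0.0286 on each day, with a Benjamini-Hochberg value of 0.0715. By day 16 the shares were 77.1% and 80.3%.

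**Figure D4:**
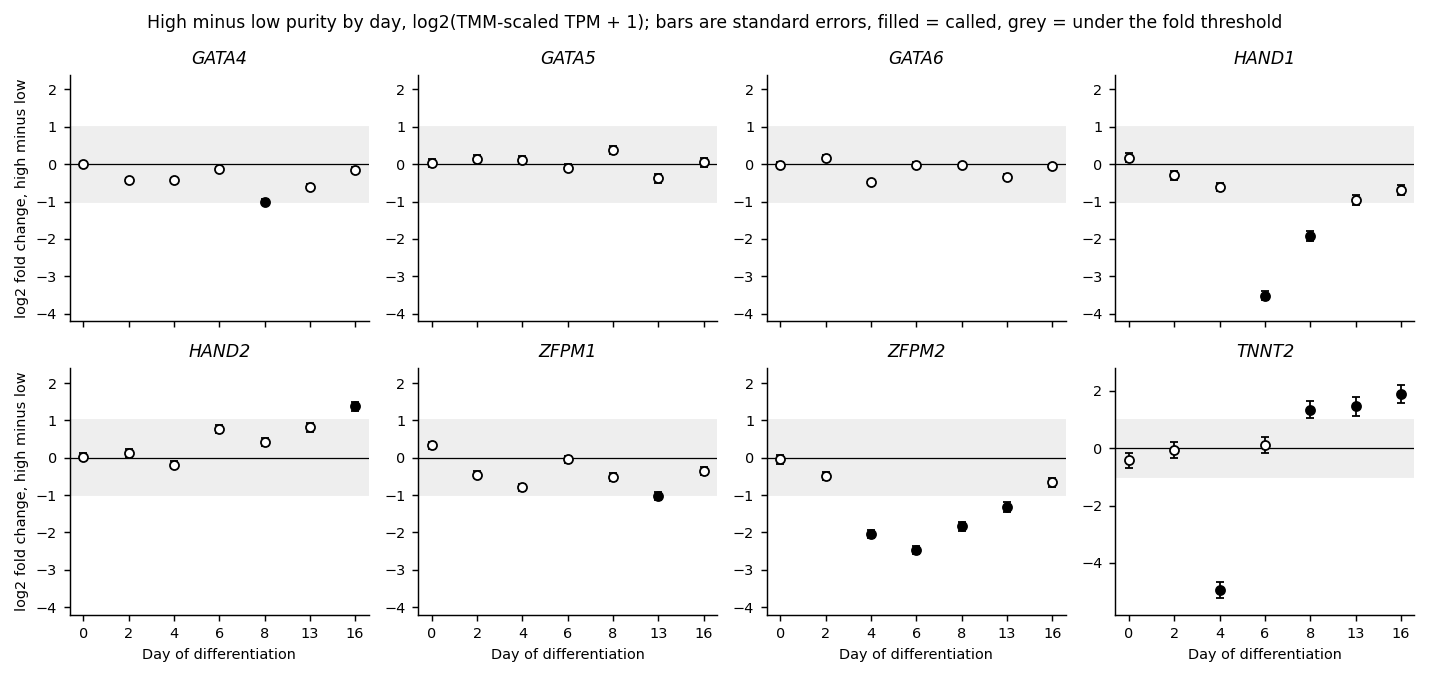
Log2 fold change of high minus low purity (vertical axis) of each factor and of TNNT2 on the 7 days tested (horizontal axis, equally spaced), multi-omic experiment. Points are limma estimates and bars their standard errors; filled points were called, and the grey band spans the fold changes under the threshold. Of the 7 factors, ZFPM2 and HAND1 lie furthest below 0, at -2.47 and -3.52 on day 6, TNNT2 is at -4.95 on day 4, and HAND2 was called above 0 on day 16 only.

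Counted over the 7 members, 0 were called between the classes on days 0 and 2, where 1.07% and 5.32% of all genes tested were, and 1 and 5 members had an unadjusted p under 0.05, as did 6591 and 11298 of the 25664 genes tested. Lower in high purity were 1 member at day 4 (7.84% of all genes called in either direction), 2 at day 6 (8.8%), 3 at day 8 (12.2%) and 2 at day 13 (10.8%), while 1 was higher at day 16 (13.4%). Members without any overlap between high and low purity wells in TPM before TMM scaling numbered 0, 4, 5, 3, 5, 7 and 6 on days 0, 2, 4, 6, 8, 13 and 16. Among all genes tested this held for 21.8%, 34.0%, 31.7%, 30.7%, 42.2%, 47.5% and 47.6%. The low purity wells were the higher ones in all of these cases except HAND2 on days 6, 13 and 16. After TMM scaling, GATA6 differed by -0.03 on day 8 (limma adjusted p = 0.738) and -0.05 on day 16 (limma adjusted p = 0.61), and GATA4 on day 16 by -0.16, so these separations in TPM did not pass the test.

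Over time, 3 members rose from day 0 to 2 in high and 4 in low purity wells (16.7% and 17.9% of all genes called), the fourth being ZFPM1. From day 2 to 4, 5 rose in high and 6 in low purity wells (13.7% and 16.9%), with GATA6 uncalled in both. From day 4 to 6 only HAND1 was called, falling in high and rising in low purity wells (7.96% and 6.61%). None was called from day 6 to 8 (5.58% and 3.31%), and 5 and 3 members, and 9762 and 8925 of the 25664 genes, had an unadjusted limma p under 0.05. From day 8 to 16 HAND2 rose in high and HAND1 fell in low purity wells (11.4% and 6.39%). The change differed between classes for 0 members from day 0 to 2 (3.22%), where 5 members and 7416 of the 25664 genes had an unadjusted p under 0.05, for ZFPM2 from day 2 to 4 (8.93%), for HAND1 from day 4 to 6 (7.51%) and from day 6 to 8 (4.14%), and for HAND1 and ZFPM2 from day 8 to 16 (9.17%).

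Markers of other cell types moved with the class, in both directions. The summed TPM of 6 stromal genes, led by collagens, was 276 to 424 in high and 1140 to 1200 in low purity wells on day 4, 710 to 973 and 2510 to 3910 on day 6, and 454 to 542 and 8590 to 11600 on day 16. That of 6 epicardial genes was 12.9 to 17.0 against 177 to 303 on day 6 and 18.3 to 22.9 against 412 to 562 on day 16. On day 16 TCF21 and UPK3B were under 1 TPM in every high purity well, while 0 of the 6 were so in low purity wells. For the counts that follow, the share of all genes called in either direction was 5.32% on day 2, 7.84% on day 4 and 8.8% on day 6. It was 12.2% on day 8, 10.8% on day 13 and 13.4% on day 16. Of the epicardial list, 5 of 6 genes were called lower in high purity on day 6 and 6 of 6 on day 16, and of the stromal list 4 of 6 and 5 of 6. Other lists held genes called higher in high purity. Of 7 endoderm genes tested, 5 were called higher and 1 lower in high purity on days 6 and 8. The summed TPM of the list was 880 to 1310 against 321 to 532 on day 6 and 850 to 1620 against 226 to 388 on day 8. On day 10 it was 976 in the single high purity well, against 2170 to 2670 in low purity wells. By day 16 it was 77.7 to 488 in high against 468 to 1250 in low purity wells, with 2 genes called higher and 1 lower. Of 6 endothelial genes, 4 were called higher on each of days 6, 8, 13 and 16, with 1 or 2 lower, while the summed TPM of that list was lower in high purity on day 16, at 55.3 to 68.8 against 159 to 236. Of 6 amnion and surface epithelium genes, 4 were called higher on day 8 and 5 on day 13, and of 7 pluripotency genes 3 on days 2, 4 and 6. GATA4 and ZFPM2 are also known from epicardial cells, and GATA4 and GATA6 from endoderm. The part of these cell types in the levels of the members was not tested.

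Across the RNA-only libraries no gene was called between high and low purity at any of the 4 stages (0.0%, 0.0%, 0.0% and 0.0% of 24810 genes, edgeR quasi-likelihood test), so neither was a member. Over all genes, 362, 1921, 1828 and 2916 had an unadjusted p under 0.05 at stages 1 to 4, and of the members only HAND2 at stage 2 did. Nor did any change between stages differ (0.0%, 0.0% and 0.0%). There are 3 lines of 1 pair each, and the 8 residual degrees of freedom of these tests come from pooling the 4 stages. The stages are repeated samples of the same differentiations, for which the purity fit had no term. The single values are given line by line.

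The order of onset differed among the 6 differentiations. At stage 2, GATA6 was at 22.2 and 46.4 TPM in H9 (high and low purity), 40.9 and 30.1 TPM in IMR90-4 and 18.2 and 6.15 TPM in WTC11. GATA4 was at 8.65 and 10.5, 12.2 and 11.5, and 8.91 and 3.31 TPM. HAND1 was already at 229.7 and 170.2 TPM in H9 and 70.8 and 49.6 TPM in IMR90-4 on day 3, but at 3.35 and 0.809 TPM in WTC11 on day 2. GATA4, GATA5, GATA6 and HAND1 were called from stage 1 to 2 (24.8% of all genes called; edgeR adjusted p = 2.06e-09, 9.50e-04, 4.43e-10 and 6.12e-06), and TNNT2 fell (adjusted p = 0.00548). The TNNT2 fall was not called without IMR90-4 (edgeR adjusted p = 0.114) or without WTC11 (edgeR adjusted p = 0.109). GATA5, HAND2 and ZFPM2 rose from stage 2 to 3 by 3.78 ± 0.68, 6.36 ± 0.98 and 2.98 ± 0.59 (SE; 5.86% of all genes called; adjusted p = 0.00397, 0.00265 and 0.00652). All 3 calls were lost without IMR90-4, and without WTC11 only that of GATA5 was left. ZFPM2 was low, at 0.0137 to 1.04 TPM at stage 2 and 0.130 to 3.59 TPM at stage 3. With limma on log2(TPM + 1) its rise was 0.51 (adjusted p = 0.154) and not called. By the same limma fit the GATA5 rise from stage 1 to 2 was 0.79 (adjusted p = 0.0277), under the fold threshold. From stage 3 to 4 no member was called (2.87% of all genes called; 4 members and 4756 of 24810 genes had an unadjusted p under 0.05, and DESeq2 called 1), while TNNT2 rose by 5.59 ± 0.93 (adjusted p = 0.00365). That TNNT2 call was lost without IMR90-4 (4.63; edgeR adjusted p = 0.273) and without WTC11 (4.80; edgeR adjusted p = 0.0925).

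TNNT2 reached 10 TPM at the last stage in 5 of the 6 differentiations and at day 5 in low purity H9. GATA4 reached it before TNNT2 in every differentiation but low purity WTC11, where both came on day 6, and GATA6 and HAND1 before TNNT2 in all 6. HAND2 came before TNNT2 except in low purity IMR90-4 and low purity WTC11, where both came on the same day. GATA5 came before TNNT2 in high purity H9 and high purity IMR90-4 only. It came on the same day in low purity H9, and did not reach 10 TPM in low purity IMR90-4 or in WTC11 of either class. ZFPM1 stayed under 10 TPM in all 6, between 0.716 and 3.54 TPM, and so did ZFPM2, at 6.97 TPM or less.

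Low purity H9 stood apart. On day 3 it held HAND2 at 14.3 TPM, where the other 5 differentiations were at or under 0.0888 TPM, and ZFPM2 at 1.04 TPM, where they were at or under 0.0560 TPM. On day 5 its TNNT2 was at 28.9 TPM against 2.82 TPM in high purity H9, and on day 7 at 46.3 against 210.6 TPM. Its ZFPM2 reached 3.59 TPM on day 5 and 6.97 TPM on day 7, against 0.162 and 0.872 TPM in high purity H9. The summed stromal genes were at 1560 TPM on day 7 against 404 TPM in high purity H9, and the epicardial genes at 159 against 26.2 TPM. Their part in these levels was not tested. Without H9, GATA6, HAND2 and ZFPM2 were called higher in high purity at stage 3 (log2 1.49, 2.52 and 2.24; edgeR adjusted p = 0.0404, 0.0107 and 0.0270), a fit on 2 lines.

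For GATA4 and GATA6 at stage 3, the high purity libraries of IMR90-4 and WTC11 were above the low purity ones, where the multi-omic wells of day 4 had low purity above. At stage 3, GATA4 was at 24.6 TPM in the high and 10.4 TPM in low purity IMR90-4, and at 16.9 and 8.17 TPM in WTC11, but at 13.9 and 37.2 TPM in H9. GATA6 was at 47.4 and 14.9 TPM in IMR90-4, 29.8 and 10.3 TPM in WTC11, and 33.3 and 33.3 TPM in H9. HAND1 was higher in the high purity library of all 3 lines at stage 2 (0.85 ± 0.45, SE; edgeR adjusted p = 0.676). At stage 3 it was at 168.4 and 94.5 TPM in IMR90-4, 54.9 and 48.45 TPM in WTC11, but 122.9 and 161.2 TPM in H9. In the multi-omic experiment all low purity wells were above the high purity wells for HAND1 on days 2 and 4. At stage 4, GATA6 was higher in the high purity library of all 3 lines, at 50.7 against 29.0 TPM in H9, 45.6 against 26.8 TPM in IMR90-4 and 36.2 against 15.9 TPM in WTC11 (0.91 ± 0.43, SE; edgeR adjusted p = 0.455). ZFPM2 was at 1.73 and 0.848 TPM in IMR90-4 and 1.02 and 0.733 TPM in WTC11 at stage 4, so it was not lower in high purity there, as it was in H9 and in the multi-omic wells. The 2 experiments used different library kits, so TPM levels are not directly comparable between them, and the order of the classes within each is what is read here. Low purity WTC11 at passage 69 was in both, and its day 4 TNNT2 read 457 to 524 TPM in those wells and at 0.613 TPM in the RNA-only library, when the high purity libraries of WTC11 were at 10.3 to 20.8 and 2.78 TPM.

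HAND2 was higher in the high purity library of all 3 lines at stage 4, at 164.9 against 37.6 TPM in H9, 61.2 against 32.3 TPM in IMR90-4 and 55.6 against 26.7 TPM in WTC11. The edgeR estimate was 1.36 ± 0.94 (SE; adjusted p = 0.609). Among the members, only HAND2 and GATA6 went the same way in all 3 lines at this stage. How many of all genes did so was not counted, so agreement of 3 lines cannot be set against a background. HAND1 was at 30.9 against 109.1 TPM in H9 and 20.3 against 33.2 TPM in WTC11, but at 37.0 against 24.4 TPM in IMR90-4 (-0.66 ± 0.45; adjusted p = 0.603). The HAND1 share of the pair at stage 4 was 15.8% in high against 74.4% in low purity H9, 37.7% against 43.0% in IMR90-4 and 26.8% against 55.4% in WTC11. It was lower in the high purity library of all 3 lines at this stage, by amounts that differed widely. At stage 3 it was lower in 2 of 3, with H9 the exception at 88.7% against 81.8%.

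**Figure D5:**
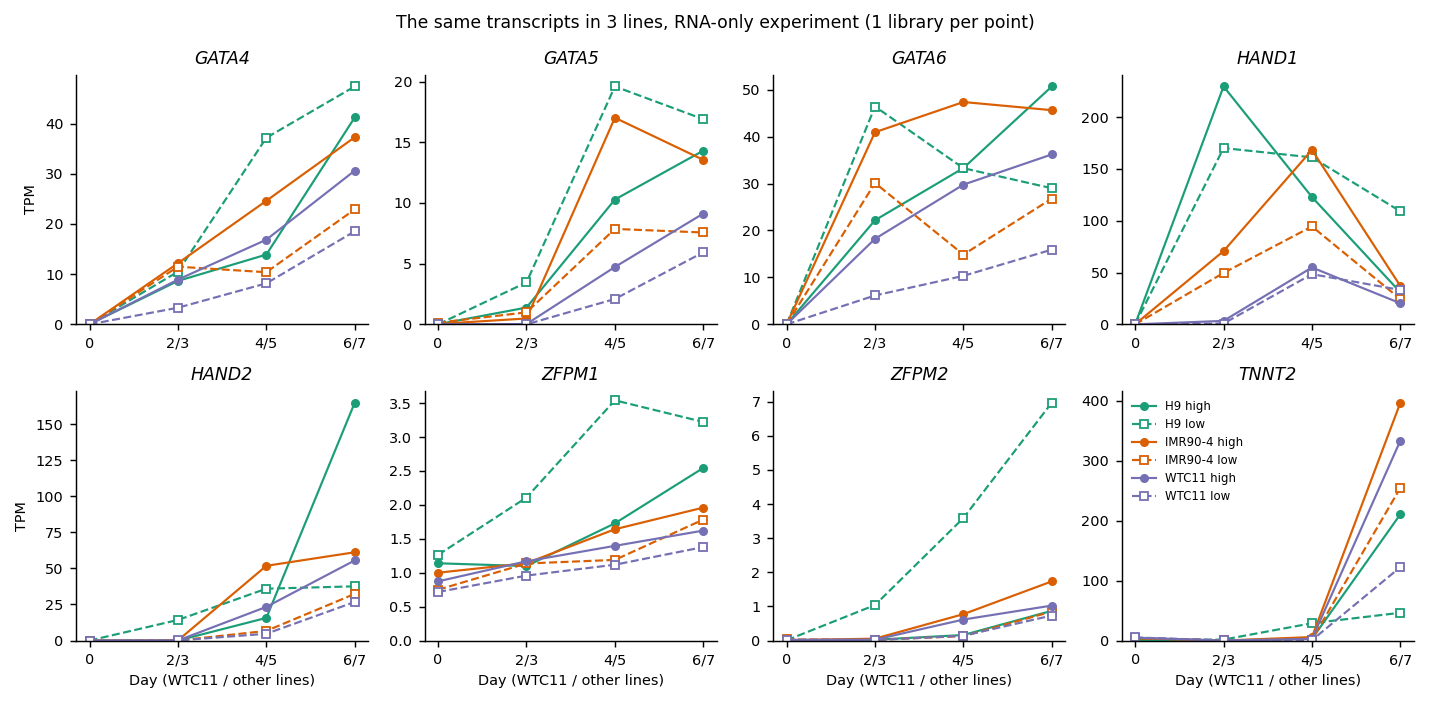
TPM (vertical axis, linear, a separate scale per gene) of the 7 factors and TNNT2 at the 4 stages (horizontal axis, day in WTC11 / day in the other lines) of the RNA-only experiment. Each point is 1 library; colours are lines, filled circles and solid lines high purity, open squares and dashed lines low purity. Low purity H9 holds the highest ZFPM2, 6.97 TPM, and high purity H9 the highest HAND2, 164.9 TPM.

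Genes that work with the factors were read from lists. Of 10 partner transcription factors, 4 were called lower in high purity on day 4 (TBX5, MEF2A, MEF2C and MYOCD), beside 7.84% of all genes called in either direction. On day 6, where 8.8% of all genes were called, 4 were called higher. They were MEF2C, at 85.4 against 30.1 TPM (log2 1.58), NKX2-5, at 62.2 against 21.7 TPM (1.58), MYOCD, at 155 against 57.0 TPM (1.45), and ISL1 (1.73). On day 16, where 13.4% of all genes were called, 5 were called higher, with NKX2-5, the homeobox partner of GATA4, at 99.9 against 31.2 TPM (log2 1.93). The median log2 fold change of the list was -0.76 on day 4 and 0.90 on day 16, and that of all genes 0.00 on both days. GATA4 and ZFPM2 were called higher in high purity on none of the 7 days tested.

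Of 9 cardiac genes known as GATA4 targets, 7 were called lower in high purity on day 4 and 0 higher, beside 7.84% of all genes called in either direction. The median log2 fold change of the list was -1.61, against 0.00 over all genes. MYH6, the atrial myosin heavy chain, was at 5.99 against 108 TPM (log2 -4.03), and ACTC1, cardiac actin, at 59.1 against 1730 TPM (-4.84). On day 8, where 12.2% of all genes were called, 5 were called higher and 1, the natriuretic peptide gene NPPB, lower (-2.33). On day 16, where 13.4% of all genes were called, 4 were called higher, with MYH6 at 3990 against 359 TPM (3.70), and NPPB again lower (-1.26). MYH6, MYH7, TNNC1 and ACTC1 are also in the cardiomyocyte marker list, so these counts are not separate from the cardiomyocyte difference between the classes. Since cardiac troponin T protein at day 16 set the classes, the late direction of such genes is not independent of the grouping. Action of GATA4 on them was not tested. Of the 5 E proteins and TWIST factors, TCF4 (-1.13) and TWIST1 (-1.49) were called lower in high purity on day 4, TWIST1 also on day 2 (-1.16), and 0 of 5 on days 6, 8, 13 and 16. Of the other GATA factors, GATA3 was called higher in high purity from day 4 and GATA2 from day 6 to day 16, with GATA3 at 66.4 against 17.2 TPM on day 6 (log2 1.87), while GATA1 and TRPS1 were not called on any day. Of 10 genes of the BMP pathway, which is known to act upstream of HAND and GATA genes, BMP4 was called lower in high purity on days 2, 6, 8, 13 and 16, at 78.8 against 297 TPM on day 6 (-1.91), and BMP2 (1.69) and BMP7 (1.51) were called higher on day 6. Beside these lists, 5.32%, 7.84%, 8.8%, 12.2%, 10.8% and 13.4% of all genes were called in either direction on days 2, 4, 6, 8, 13 and 16. In the RNA-only experiment 0 genes of these lists were called between classes at any stage.

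Over the 16 groups of class and day in the multi-omic experiment, the genes with the pattern most like each factor were read as Pearson's r of log2 group means, as a description. GATA4 was most like TNRC18 and CCDC92 (both r = 0.988), and GATA6 most like TGFB1 (0.984). GATA5 was most like TBX2 (0.991) and HAND2 most like TBX20 (0.994), both T-box factors. HAND1 was most like SYNJ1 (0.972), ZFPM2 most like ARHGAP6 and USP47 (both 0.986), and ZFPM1 most like PHF2 (0.968). Among the members the closest pairs were GATA5 with HAND2 (0.976) and GATA4 with GATA6 (0.961). With TNNT2, r was highest for HAND2 (0.909) and GATA5 (0.902) and lowest for GATA6 (0.492). The groups share wells of only 2 differentiations.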

How the data were processed

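RNA was measured in 80 libraries. Reads were aligned with STAR 2.5.3a to hg38 and counted with featureCounts 2.0.3, per the submitters' processing notes; the annotation release, the strand setting and the TPM calculation are not given in the sources used here. The authors deposited read counts per gene and TPM per gene for each experiment. Groups come from the labels, and TPM columns were matched to samples by name. Because the multi-omic count columns did not match by name, that count table was used only for the name check. Multi-omic reads were recovered from TPM with gene lengths solved from the RNA-only tables, for 37194 genes, with 100.0% of values whole within 0.02 reads or a relative 1e-06. From the RNA-only counts, 36 broken lines were left out.

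Multi-omic TPM were scaled by TMM (edgeR 4.0.16), transformed as log2(TPM + 1) and fitted with limma 3.58.1 (R 4.3.3) on 16 group means with 40 residual degrees of freedom, over 25664 genes at 1 TPM or more in at least 3 libraries. Fold changes on this scale understate the change of low genes. Day 10, with 1 high purity well, was not tested between classes. RNA-only counts were tested with edgeR's quasi-likelihood test over 24810 genes, with line as a block in the purity comparisons because each line gave a pair (8 residual degrees of freedom), and 12 for stage changes. Alternatives were a pseudocount of 0.1, other scalings, no filter, no fold threshold, edgeR and DESeq2 1.42.0 on reads, a replicate block and leaving out each replicate. Limma on log2(TPM + 1) was a further alternative for the RNA-only experiment. The fits were tested on simulated data.

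The members, lists and tests were chosen with earlier results of these data known. The 7 members and TNNT2 are always named; from each list, up to 4 called genes with the largest absolute fold change in the comparison described; for likeness, the 3 genes with the highest correlation among 11490 genes at 10 TPM or more, of which the first or tied first are printed. Promoter windows come from RefSeq on GRCh38.p14.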

Additional observations from a re-analysis of the deposited data

Results flagged for a closer look

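Of 68 groups of 4 wells examined, 2 held a well far from the other 3, where chance alone gives about 1 in 20. GATA5 in low purity well 1 on day 8 was at 34.3 TPM, with the others at 38.6 to 39.5 TPM. HAND1 in high purity well 4 on day 6 was at 97.8 TPM, with the others at 65.6 to 69.6 TPM.

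The change between days differed between the classes by the interaction term of the limma fit in 8 cases. From day 2 to 4 the difference, high minus low, was -1.55 for ZFPM2 and -4.88 for TNNT2. From day 4 to 6 it was -2.91 for HAND1 and 5.07 for TNNT2. From day 6 to 8 it was 1.59 for HAND1 and 1.23 for TNNT2, and from day 8 to 16 it was 1.22 for HAND1 and 1.18 for ZFPM2. The TNNT2 value from day 6 to 8 had an adjusted p of 0.0271, and of 0.342 with a pseudocount of 0.1 and 0.0637 without scaling beyond TPM. It was also not called without high purity day 6 well 2 or 3, high purity day 8 well 4, low purity day 6 well 2 or 3, or low purity day 8 well 4, with limma adjusted p from 0.0502 to 0.113.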

How the results depend on the processing

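Of 575 alternative values of the 59 called pairs of gene and comparison, 0 changed sign and 36 lost the call; the cause was not tested. Counts are of the 7 members called. Without the fold threshold, and so by construction, they went between classes from 0 to 1 on day 0, 0 to 5 on day 2, 1 to 5 on day 4, 3 to 6 on day 8, 2 to 7 on day 13 and 1 to 4 on day 16. Over the intervals starting at days 4, 6 and 8 they went to 5, 5 and 5 in high and 7, 3 and 4 in low purity wells. The differences in change went to 4, 3, 6, 5 and 4 over the intervals starting at days 0, 2, 4, 6 and 8, and the RNA-only change from stage 2 to 3 went from 3 to 5. A pseudocount of 0.1, edgeR and DESeq2 each called 1 member on day 2 (ZFPM2), and for the difference in change called 3, 1 and 1 from day 0 to 2 and 0, 0 and 0 from day 2 to 4. Without the filter on low values 1 was called on day 13. In low purity wells from day 4 to 6, no scaling, median-of-ratios scaling, edgeR and DESeq2 each called 2 rather than 1, and leaving out 1 well gave 1 to 2 (2 without low purity day 6 well 2). From day 6 to 8, no scaling called 2 differences in change. From day 4 to 6 leaving out 1 well gave 1 to 2, with 2 without high purity day 4 well 4, high purity day 6 well 2 or low purity day 4 well 1. In the RNA-only experiment, leaving out 1 line gave 0 to 3 members at stage 3, 0 to 3 from stage 2 to 3, and 0 to 2 from stage 3 to 4 (2 without H9), where DESeq2 called 1. Members at the threshold before TNNT2 were 5 in high purity at 20 TPM. The count of 0 in low purity at 5 TPM cannot be read, because TNNT2 was already above that level on day 0.

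Same-numbered wells of the classes were not correlated (-0.0128 to 0.0319), so the wells share only a number. A replicate block on well number changed no count of called members (3 on day 8), and the RNA-only comparisons without the replicate block of lines called 0 at each stage.

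The tests show the spread between wells of 1 differentiation per class, not between differentiations. Levels under about 1 TPM rest on few reads, and the pseudocount sets their fold changes. Single RNA-only libraries have no replicate.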
